A study of Mus musculus with 6 samples.

Results

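The transcripts described here are those of 9 sialyltransferase genes and of Cmas, whose enzyme activates sialic acid, in mouse embryonic fibroblasts (MEFs), which are connective tissue cells grown from mouse embryos. The 10 genes were picked by symbol from the 22355 rows of the deposited table, by the linkage their enzymes make, with St6gal1 set beside its paralogs because of its lower level after Hk2 silencing. The difference between the groups therefore helped to choose them, and their values are given as a description, with no test of their own. The descriptions in the table name 9 of the 10 as sialyltransferases and Cmas as a synthetase. Both groups of MEFs were transfected, one with a negative control small interfering RNA (siControl, 3 libraries, numbered 4, 5 and 6 in the table) and one with a small interfering RNA against Hk2 (siHk2, 3 libraries, numbered 1, 2 and 3). The labels give no genotype, strain, passage or time after transfection, and do not say whether each library was grown as its own culture, so the spread between libraries may be technical.

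Sialic acids are the acidic sugars that cap many glycan chains of glycoproteins and glycolipids at the cell surface. Cmas couples sialic acid to CMP in the nucleus, the CMP-sugar enters the Golgi, and sialyltransferases there move the sugar onto galactose, N-acetylgalactosamine (GalNAc) or another sialic acid. The enzyme sets the linkage: ST3GAL enzymes make α2,3 bonds to galactose, ST6GAL enzymes α2,6 bonds to galactose, ST6GALNAC enzymes α2,6 bonds to GalNAc and ST8SIA enzymes α2,8 chains. An α2,3 cap and an α2,6 cap compete for the same galactose ends of N-glycans, and the α2,6 cap hides these ends from galectins.

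The knockdown target itself, Hk2, whose product is hexokinase 2 and phosphorylates glucose, was at 57.07, 62.53 and 58.92 TPM in siControl, against 22.37, 21.44 and 21.8 TPM in siHk2. TPM, a transcript abundance, is corrected for transcript length and scaled to the same total in each library, so that levels can be compared between genes but sequencing depth is unknown. Hk2 fell by 1.40 (SE 0.0553, Benjamini-Hochberg adjusted p = 0.000222 in limma) on the log2(TPM + 1) scale. Of 8 fibroblast markers, 6 were at a mean of at least 1 TPM. Of these Vim fell, from a mean of 2370 to 1970 TPM (adjusted p = 0.011 in limma). The 8 summed to 3330 to 3440 TPM in siControl and 3050 to 3200 TPM in siHk2, and most of this sum was Vim. The means of Col1a1 (105 TPM for siControl and 160 TPM for siHk2) and Col1a2 (533 and 593 TPM) were higher in siHk2. So were those of Col3a1 (183 and 210 TPM) and Pdgfrb (153 and 175 TPM), while that of Pdgfra (30.3 and 29.0 TPM) was lower. None of these other markers was called. The markers Thy1 (means of 0.367 TPM for siControl and 0.273 TPM for siHk2) and Dcn (0.133 and 0.28 TPM) were nearly absent. Markers of B cells and of hepatocytes, the cells best known for St6gal1, summed to 0.23 to 0.78 and 0.41 to 0.89 TPM in siControl libraries and to at most 0.57 and 0.35 TPM in siHk2 libraries, over the 2 listed genes of each type with values here. Epithelial and endothelial markers summed to at most 2.39 and 0.83 TPM in any library, and of 4 macrophage markers 1 was tested, Cd68, at means of 44.0 and 36.9 TPM. Of 4 glial markers 1 rose, and their sum was 91.6 to 96.7 TPM in siControl and 138 to 150 TPM in siHk2; of 4 adipocyte markers 1 rose, and their sum was 195 to 340 and 306 to 377 TPM. The glial marker S100b rose from a mean of 90.2 to 143 TPM (adjusted p = 0.000906 in limma) and the adipocyte marker Cidec from 3.18 to 8.93 TPM (adjusted p = 0.00849 in limma), while the glial factor Sox10 (0.0167 and 0.0233 TPM) and the adipocyte hormone Adipoq (0.197 and 0.05 TPM) were near 0; whether other cell types had a part in the values below was not tested.

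The sialyltransferase transcripts of MEFs were made up almost wholly of α2,3 and GalNAc-directed enzymes, and the mix differed between the groups. St3gal5, the GM3 ganglioside synthase, was 1.79 times as high in siHk2 as in siControl, and St3gal3, an α2,3 enzyme of N-glycans, 1.36 times. St6gal1, the α2,6 enzyme of N-glycans, was at 0.426 times and St6galnac6, an enzyme of complex gangliosides, at 0.729 times its siControl mean. The other tested enzymes of the list, St3gal1, St3gal2, St3gal4, St6galnac4 and the activating enzyme Cmas, differed by less. In such bulk RNA, fewer cells that express a gene and less of its RNA per cell cannot be told apart.

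**Figure D1:**
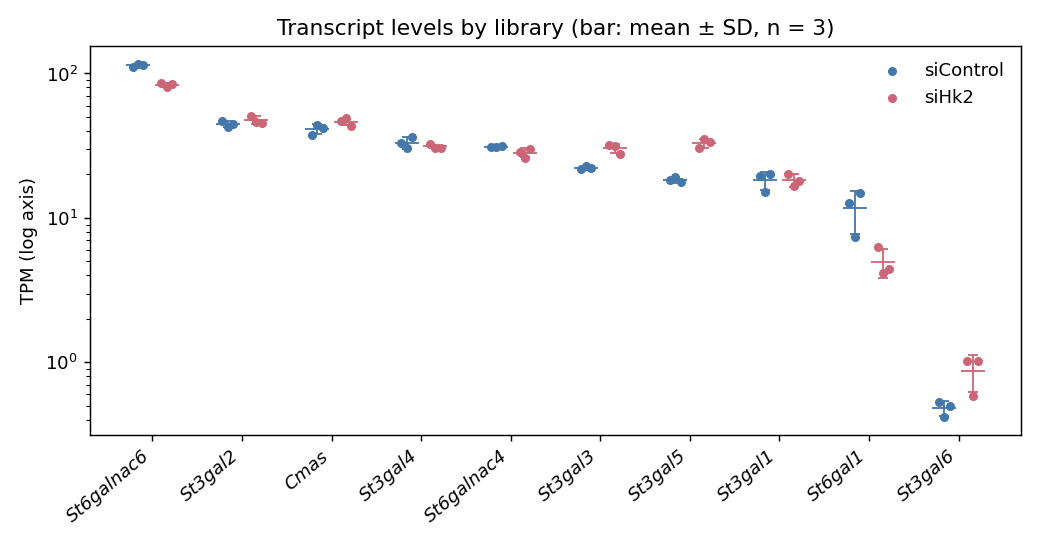
TPM on a log axis for each of the 10 genes in the 3 siControl (blue) and 3 siHk2 (red) libraries, with mean and SD as bars and genes ordered by siControl mean. The groups do not overlap for 6 of the 10 genes, against 35.7% of all tested genes, and nothing is read from this count. St6gal1, St6galnac6 and St6galnac4 lie below their siControl levels. St3gal3, St3gal5 and St3gal6, the last under 1 TPM on average and not tested, lie above.

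The order of levels was led by St6galnac6 in both groups, with a siControl mean of 114 ± 2.91 (SD, n = 3) and a siHk2 mean of 83.3 ± 2.72 TPM. St3gal2 and Cmas followed in both groups, and their ranges over the libraries overlapped. In siControl, St3gal4 and St6galnac4 came next with overlapping ranges, then St3gal3, then St3gal5 and St3gal1, which overlapped, and then St6gal1. In siHk2, St3gal5 stood at rank 4 in place of rank 7, and neighbours in the run of St3gal5, St3gal4, St3gal3 and St6galnac4 overlapped. St3gal6 was last in both groups, at 0.42 to 1.02 TPM.

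Across the whole table, limma called 13.6% of 13341 tested genes at an adjusted p under 0.05, 6.15% higher and 7.42% lower in siHk2. Of the 10 genes, 9 had the mean of at least 1 TPM needed for this test, and 4 were called, with St3gal5 and St3gal3 higher and St6gal1 and St6galnac6 lower. The 9 log2 fold changes had a median of 0.01, against 0.007 over all tested genes. The groups did not overlap for 5 of the 9 genes, those 4 and St6galnac4, against 35.7% of all tested genes. Of the 5, 3 were lower and 2 higher in siHk2, against 18.1% and 17.6% of all tested genes. Since the list was made with this comparison in view, nothing is read from these counts. The count of lower genes was 1 in place of 2 without siControl library 4, without siControl library 6 and without siHk2 library 1, 2 or 3, and in each of these cases St6gal1 was the gene that lost its call.

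**Figure D2:**
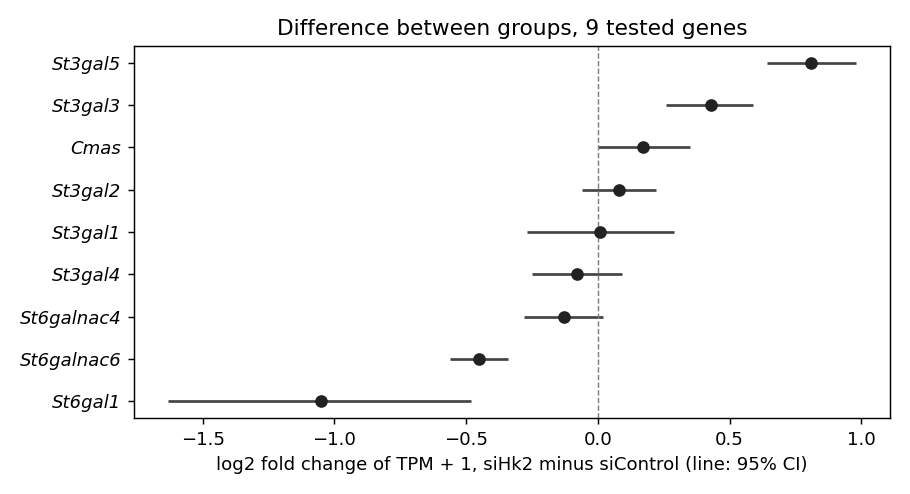
Log2 fold change of TPM + 1 (siHk2 minus siControl) with its 95% confidence interval for the 9 tested genes. St3gal5 (0.81) and St3gal3 (0.43) lie above 0, St6galnac6 (-0.45) and St6gal1 (-1.05) below it, and St6gal1 has the widest interval.

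St3gal5 (ENSMUSG00000056091, plus strand, chr6:72074576-72131555 in the table, which is on GRCm39 according to the submitters' processing notes) makes GM3 from lactosylceramide, the step that opens the ganglioside pathway. Its 3 siControl values were 18.19, 19.36 and 17.61 TPM, and its siHk2 values 30.49, 35.04 and 33.45 TPM. The 3 siHk2 libraries lay far above the 3 siControl libraries, which were close to each other. Group means were 18.4 ± 0.891 TPM for siControl and 33.0 ± 2.31 TPM for siHk2 (SD, n = 3), and the log2 fold change was 0.81 (SE 0.072, 95% confidence interval 0.64 to 0.98). It held 6.23% ± 0.48 of the summed sialyltransferase TPM in siControl and 11.8% ± 1.18 in siHk2 (SD, n = 3). Its fold change stayed between 0.77 and 0.86 when each library was left out in turn.

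St3gal3 (ENSMUSG00000028538, minus strand, chr4:117789351-117992111) adds α2,3 sialic acid to galactose at the ends of N-glycans and related chains. In siControl it was at 21.9, 22.92 and 22.03 TPM, and the siHk2 libraries gave 32.08, 31.24 and 27.68 TPM. All siHk2 libraries were above all siControl libraries, with siHk2 library 3 the lowest of its group. The means were 22.3 ± 0.555 and 30.3 ± 2.34 TPM (SD, n = 3), and the log2 fold change was 0.43 (SE 0.0702, 95% confidence interval 0.26 to 0.59). A non-coding transcript on the opposite strand, 9530034E10Rik, overlaps the gene, at means of 0.16 TPM for siControl and 0.69 TPM for siHk2.

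The promoter windows of these genes, the pair that was higher, are shown to set their composition side by side. They run from 250 bases before to 50 after the start in RefSeq on GRCm38.p6, and the capitals mark the GC box (GGGCGG) and the CCAAT box, each on either strand. These matches do not overlap each other.
St3gal5 (chr6:72097358-72097657, plus strand): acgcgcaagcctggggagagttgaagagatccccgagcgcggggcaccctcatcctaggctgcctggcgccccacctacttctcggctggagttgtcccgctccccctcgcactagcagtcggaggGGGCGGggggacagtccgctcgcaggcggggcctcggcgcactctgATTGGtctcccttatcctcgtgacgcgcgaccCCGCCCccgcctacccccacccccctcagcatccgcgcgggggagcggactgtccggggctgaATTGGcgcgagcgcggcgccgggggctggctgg
St3gal3 (chr4:118134897-118135196, minus strand): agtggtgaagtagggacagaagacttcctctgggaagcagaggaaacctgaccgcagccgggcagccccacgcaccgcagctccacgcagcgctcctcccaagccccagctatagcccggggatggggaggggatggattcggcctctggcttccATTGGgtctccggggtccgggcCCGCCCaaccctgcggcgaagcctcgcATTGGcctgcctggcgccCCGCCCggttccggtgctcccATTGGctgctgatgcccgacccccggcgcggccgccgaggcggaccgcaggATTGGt
Both are rich in G and C (72.7% and 70.0%, against a median of 52.7% over 32851 windows) and hold 33 and 26 CpG pairs, against a median of 7. This is not particular to the pair. Windows of genes that were not called also lie above both medians: St3gal4 (74.0%, 31 CpG pairs), St6galnac4 (65.7%, 23) and Cmas (60.0%, 17). The 2 windows of St3gal6, which was not tested, hold 20 and 3 CpG pairs. St3gal5 holds 2 GC boxes and 2 CCAAT boxes, and St3gal3 holds 2 GC boxes and 4 CCAAT boxes. Among all windows, 35.7% hold a GC box and 37.4% a CCAAT box. Windows were found for 8 of the 10 genes, 11 in all, of which 7 hold a GC box, 7 a CCAAT box and none a TATA box (TATAAA) or the E-box CACGTG, which 13.6% and 7.15% of all windows hold. St6gal1 has 3 windows, at separate starts, with 6 to 10 CpG pairs, and the deposited values are per gene and do not tell its starts apart. St6galnac6 has 2 CpG pairs and neither box. In the deposited coordinates St6galnac4 ends 10 bases before St6galnac6 starts, so most of this window may be the end of St6galnac4. This was not tested, as the window is on another build. These matches are letters in a window and show no binding.

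St3gal4 and St3gal6 share the α2,3 N-glycan reaction with St3gal3 and make the α2,3 cap of sialyl Lewis x. St3gal4 ranged from 30.32 to 36.17 TPM in siControl and from 30.69 to 32.38 TPM in siHk2. The groups overlapped, and the 95% confidence interval of its log2 fold change ran from -0.25 to 0.09. A non-coding transcript on the opposite strand, 4930581F22Rik, overlaps St3gal4, at means of 6.72 TPM for siControl and 7.67 TPM for siHk2. St3gal6 was at 0.53, 0.42 and 0.5 TPM in siControl, against 1.02, 0.59 and 1.02 TPM in siHk2, without overlap but under the level at which genes were tested. It overlaps Dcbld2, a protein-coding gene on the opposite strand at 47.7 and 52.6 TPM, and the sources used here do not say if reads were separated by strand, so its level is uncertain. Together the 3 genes reached 55.9 ± 2.55 TPM (siControl) and 62.5 ± 3.03 TPM (siHk2, SD, n = 3), without overlap between the groups.

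St3gal1 and St3gal2 put α2,3 sialic acid on galactose of core 1 O-glycans, and the deposited annotation also lists both for ganglioside synthesis. St3gal1 ranged from 15.11 to 20.05 TPM in siControl and from 16.52 to 20.28 TPM in siHk2, with a log2 fold change of 0.01 (95% confidence interval -0.27 to 0.29). St3gal2 ranged from 42.88 to 46.79 and from 45.76 to 50.82 TPM, with a log2 fold change of 0.08 (95% confidence interval -0.06 to 0.22). Both pairs of ranges overlapped, and the intervals leave room for changes smaller than those of St3gal3 and St3gal5.

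St6gal1 (ENSMUSG00000022885, plus strand, chr16:23043490-23179100) caps galactose of N-glycans with α2,6 sialic acid. The siControl libraries 4, 5 and 6 gave 12.6, 7.39 and 14.91 TPM, and the siHk2 libraries 1, 2 and 3 gave 6.25, 4.16 and 4.45 TPM. The groups did not overlap, but the lowest siControl library, number 5, came close to the highest siHk2 library, number 1. The means were 11.6 ± 3.85 and 4.95 ± 1.13 TPM (SD, n = 3). The mean fell by 57.4%, and the log2 fold change was -1.05 (SE 0.246, 95% confidence interval -1.63 to -0.48). Over single libraries left out, the fold change ran from -0.86 without siControl library 6 to -1.32 without siControl library 5. No other ST6GAL gene has values here, and no other gene of the list had so wide a spread in siControl.

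The spread of St6gal1 within groups was large for its level. Its coefficient of variation was 33.1% in siControl and 22.9% in siHk2, whereas the median over 3292 genes with a mean of 5 to 20 TPM was 9.55% and 8.45%. Of those genes, 4.53% in siControl and 7.96% in siHk2 varied more. In a principal component analysis of all tested genes, the second component (25.7% of the variance) ran across both groups, and within each group St6gal1 was the lower the higher a library scored on it. In siControl the scores were -17.5 for library 6, -5.16 for library 4 and 17.8 for library 5. In siHk2 they were -12.0 for library 1, 3.18 for library 3 and 13.7 for library 2. This order was not particular to St6gal1. St3gal1 had it too, at 20.05, 19.39 and 15.11 TPM in siControl libraries 6, 4 and 5 and 20.28, 17.96 and 16.52 TPM in siHk2 libraries 1, 3 and 2. So did St3gal4, at 36.17, 33.04 and 30.32 TPM and at 32.38, 30.72 and 30.69 TPM. SiControl library 5 was the lowest of its group for 6 of the 10 genes and the highest for 4, and siHk2 library 2 was the lowest for 6 and the highest for 2. What sets this component, and its part in the level of St6gal1, was not tested.

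**Figure D3:**
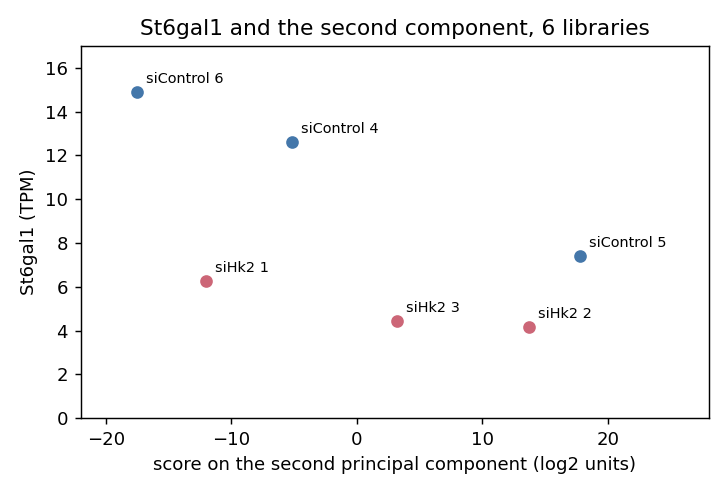
St6gal1 in TPM against the score of each library on the second principal component of log2(TPM + 1), siControl in blue and siHk2 in red. In each group St6gal1 is highest at the lowest score, from 14.91 to 7.39 TPM in siControl and from 6.25 to 4.16 TPM in siHk2.

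The 5 genes most like St6gal1 over the 6 libraries, by Pearson's r of log2(TPM + 1) among 9936 genes averaging 5 TPM or more, were Dnlz (r = 0.994), Ap3s1 (0.992), Celf1 (0.991), Nfya (0.991) and Taok1 (0.989). The points share the 2 groups and the library differences described above. The size of the difference was not alike: Ap3s1, part of the AP-3 vesicle adaptor, went from 190 ± 44.5 to 99.6 ± 11.7 TPM (SD, n = 3), and Nfya, a subunit of the CCAAT-binding factor NF-Y, from 32.7 ± 3.0 to 25.2 ± 1.46 TPM. Dnlz, a mitochondrial chaperone cofactor, went from 70.2 ± 2.73 to 64.3 ± 1.99 TPM. The siHk2 means of Celf1, an RNA-binding protein, and Taok1, a kinase, were 0.934 and 0.904 times their siControl means. Of these 5 genes, limma called Ap3s1 (adjusted p = 0.0156) and Nfya (adjusted p = 0.0287), with 13.6% of all tested genes called. The 5 were taken for their likeness to St6gal1, itself listed for its lower level. Lower siHk2 means therefore follow from the choice, and nothing is read from the r values or the calls.

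St6galnac6 (ENSMUSG00000026811, plus strand, chr2:32489721-32510818) adds α2,6 sialic acid to GalNAc of gangliosides that already carry an α2,3 sialic acid. Its siControl levels were 110.93, 116.55 and 115.04 TPM, against 85.36, 80.21 and 84.28 TPM in siHk2. The gap between the groups was wide beside the spread of either. Its log2 fold change was -0.45 (SE 0.0453, 95% confidence interval -0.56 to -0.34), the mean fell by 27.1%, and the fold change ran from -0.47 to -0.42 when each library was left out in turn. Its share of the summed sialyltransferase TPM was 38.7% ± 1.68 in siControl and 29.8% ± 0.52 in siHk2 (SD, n = 3).

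St6galnac4, which makes the same bond on core 1 O-glycans, is the neighbour of St6galnac6 on the same strand and ends 10 bases before it starts. It ranged from 30.81 to 31.4 TPM in siControl and from 26.18 to 30.21 TPM in siHk2. The groups did not overlap, and the means were 31.1 ± 0.302 and 28.3 ± 2.02 TPM (SD, n = 3). The log2 fold change was -0.13 (95% confidence interval -0.28 to 0.02). The ratio of St6galnac6 to St6galnac4 was 3.68 ± 0.102 in siControl and 2.95 ± 0.143 in siHk2 (SD, n = 3), without overlap between the groups.

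The genes called lower, St6gal1 and St6galnac6, have in common a sequence of 7 bases in the 3' untranslated region (UTR) that the other genes of the list lack. The sequence, GGAGACT, was picked earlier by a scan of 3' UTRs on these same fold changes, so its presence here supports nothing. The sites are shown as a description only, with the 7 bases in capitals, read along the transcript from GENCODE M21.
St6gal1 (base 2052 of a 3' UTR of 2480 bases): acattagagatGGAGACTacactgggtag
St6galnac6 (base 1441 of a 3' UTR of 1552 bases): tgggggttgggGGAGACTagccagcagtg
The bases on either side differ between the sites. In St6galnac6 all 6 annotated transcripts with a 3' UTR hold the site, and in St6gal1 2 of 3. None of the annotated 3' UTRs of the other 8 genes holds it, among them that of St3gal1, the longest at 3782 bases. Of 11514 tested genes with an annotated 3' UTR, 15.3% hold GGAGACT, beside 2 of the 10 genes of the list. Nothing is read from this count. The sources used here do not give the sequences of the small interfering RNAs.

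Cmas (ENSMUSG00000030282, plus strand, chr6:142702412-142721440) makes the CMP-sialic acid that all these enzymes use. Its levels were 37.53, 43.92 and 41.96 TPM in the siControl libraries and 46.59, 49.12 and 43.61 TPM in the siHk2 libraries. SiHk2 library 3 lay within the siControl range and libraries 1 and 2 above it. The means were 41.1 and 46.4 TPM, with a log2 fold change of 0.17 (95% confidence interval -0.00 to 0.35).

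Summed by linkage, the balance of the family differed between the groups while its total differed little. The 15 sialyltransferase genes with values in the table summed to 295 ± 8.48 TPM (siControl) and 279 ± 8.62 TPM (siHk2, SD, n = 3), with overlapping groups, and the 9 genes described here held 99.5% to 99.7% of it in every library. The ST3GAL genes went from 137 ± 5.61 to 161 ± 5.33 TPM, which is 46.5% and 57.8% of the total. The ST6GALNAC genes went from 146 ± 3.12 to 113 ± 4.69 TPM, which is 49.6% and 40.4%. In both cases the groups did not overlap. These sums mostly follow single genes, not whole linkage classes. St3gal5 went from 18.4 to 33.0 TPM and St3gal3 from 22.3 to 30.3 TPM. St3gal1 (18.2 and 18.3 TPM), St3gal2 (44.9 and 47.6 TPM) and St3gal4 (33.2 and 31.3 TPM) differed little. St6galnac6 went from 114 to 83.3 TPM and St6galnac4 from 31.1 to 28.3 TPM. The ST8SIA genes summed to at most 0.04 TPM in any library. The ratio of the α2,3 N-glycan enzymes (St3gal3, St3gal4 and St3gal6) to St6gal1 was 4.4, 7.26 and 3.94 in siControl libraries 4, 5 and 6 and 10.5, 15.0 and 13.4 in siHk2 libraries 1, 2 and 3. St6gal1 was listed because of its lower level, so this ratio mostly restates that choice. Its upper part went only from 55.9 to 62.5 TPM. These sums are of transcripts, and no enzyme activity or glycan was measured.

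**Figure D4:**
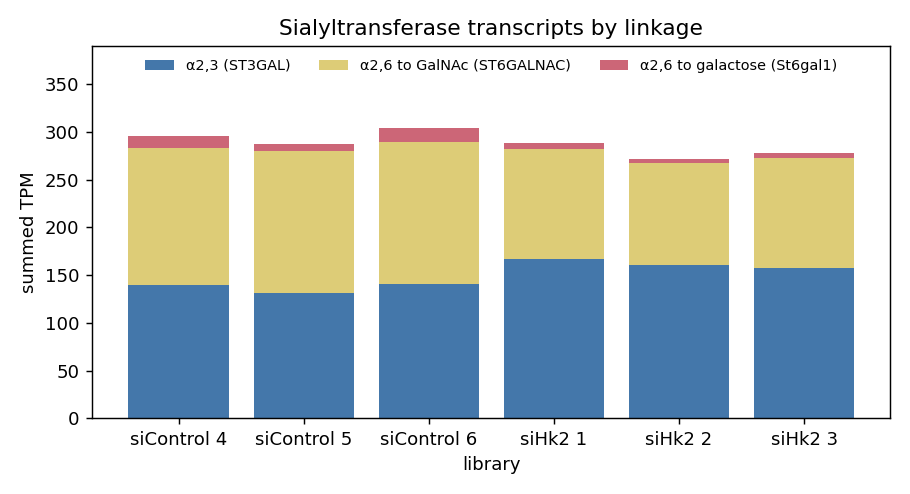
Summed TPM of the sialyltransferase genes in each library, stacked by the linkage made: ST3GAL in blue, ST6GALNAC in yellow and St6gal1 in red; ST8SIA genes, at 0.04 TPM or less, are not drawn. The ST3GAL sum is 131 to 141 TPM in siControl and 157 to 167 TPM in siHk2, and the ST6GALNAC sum 143 to 149 and 107 to 116 TPM.

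Of 74 listed genes that supply, remove or bind sialic acid or build its acceptor glycans, 43 were tested, of which 4 rose and 1 fell. This is 11.6% of the 43, beside 13.6% of all tested genes, and their median log2 fold change was 0.04 against 0.007. At an unadjusted p under 0.05 there were 21 (48.8%), with 30.7% of all tested genes below it. Without siControl library 4, siHk2 library 2 or siHk2 library 3 the counts were 0 higher and 0 lower, without siHk2 library 1 the count of rises was 1, and without siControl library 5 it was 2, with 2 falls.

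Among genes that supply sialic acid and the galactose it is joined to, or that modify it, 2 of 8 tested rose and none fell, with 6.15% of all tested genes called higher. Slc35a2, the Golgi carrier of UDP-galactose, rose from 23.9 ± 0.749 to 28.6 ± 1.22 TPM (n = 3, SD; adjusted p = 0.0343 in limma). Renbp, which interconverts N-acetylglucosamine and N-acetylmannosamine, rose from 117 ± 6.01 to 138 ± 8.07 TPM (adjusted p = 0.0403 in limma). The enzymes that make sialic acid did not pass: Gne, which catalyses the committed step, was at 29.8 ± 3.64 and 27.2 ± 1.87 TPM, and Nans, the sialic acid synthase, at 113 ± 1.54 and 106 ± 6.76 TPM. Slc35a1, which carries CMP-sialic acid into the Golgi, was at 63.6 ± 8.44 and 73.8 ± 3.74 TPM (adjusted p = 0.158 in limma). Nanp, the phosphatase between Nans and Cmas, was below 1 TPM and was not tested.

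Among genes that build the N-glycan acceptors, 2 of 11 tested rose and none fell, with 6.15% of all tested genes called higher and 7.42% lower. The median log2 fold change of the 11 was -0.02, so the part as a whole did not rise. Man2a1, a Golgi mannosidase, rose from 89.6 ± 2.98 to 108 ± 2.78 TPM (adjusted p = 0.0122 in limma), and B4galt1, which adds the galactose that St6gal1 and the ST3GAL enzymes cap, from 98.8 ± 4.03 to 114 ± 0.581 TPM (adjusted p = 0.0289 in limma). Of 4 tested genes of glycolipid acceptors, B4galnt1 fell from 27.1 ± 1.26 to 20.9 ± 2.69 TPM (n = 3, SD; adjusted p = 0.0494 in limma). Its enzyme turns GM3, the product of St3gal5, into GM2, and its call was lost in 9 of 13 other settings, that of Slc35a2 in 7, Renbp in 7, B4galt1 in 5 and Man2a1 in 3. Ugcg, which makes the glucosylceramide at the base of these lipids, was at 31.9 ± 1.0 and 30.4 ± 1.82 TPM (adjusted p = 0.514 in limma). None of the 4 tested genes of sialidases and their lysosomal complex, 5 O-glycan genes, 4 protease genes that release Golgi enzymes or 6 lectin and adhesion genes passed in limma. In that order, 2, 1, 1 and 2 of them were at an unadjusted p under 0.05 in limma, with 30.7% of all tested genes below it. Nothing is read from these counts. The first 2 were the complex partners Ctsa and Glb1, not the sialidases Neu1 and Neu3. Neu1, the lysosomal sialidase, was at 93.7 ± 8.26 and 102 ± 2.53 TPM (SD, n = 3). Of the remaining sialyltransferases on the list, 1 was tested, St6galnac2, at 1.01 and 1.03 TPM, and it did not pass.

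**Figure D5:**
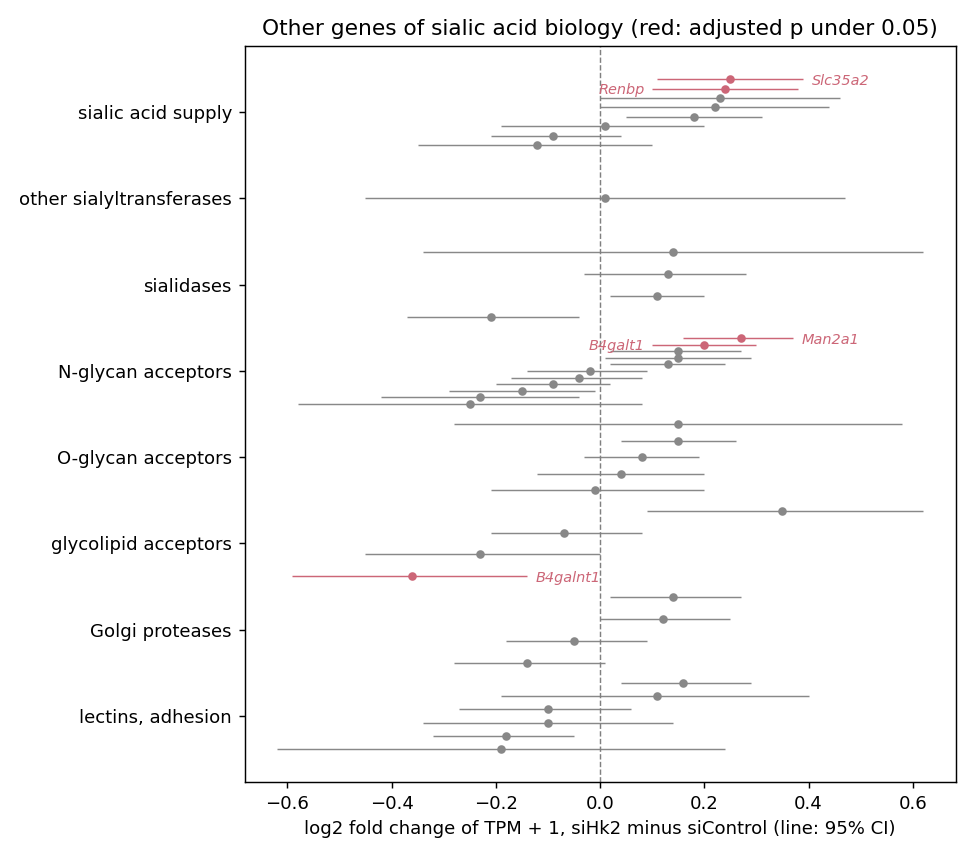
Log2 fold change of TPM + 1 (siHk2 minus siControl) with 95% confidence intervals for the 43 tested genes of sialic acid biology, grouped by role, with genes past an adjusted p of 0.05 in red and named. The 4 rises lie in sialic acid supply and N-glycan acceptors and the 1 fall, B4galnt1, among glycolipid acceptors.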

How the data were processed

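RNA was extracted with Trizol, enriched for poly(A) and sequenced on a BGI platform, per the labels' protocols. The authors deposited TPM values, rounded to 2 decimals, for 6 libraries; the submitters' processing notes name GRCm39 (mm39) as the build, and the sources used here do not name the aligner, counter or annotation. The unit keeps no depth, so no counting interval was possible. Column numbers of siControl correspond to none of its sample titles, so these columns were taken as replicates of their group.

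The 13341 genes averaging 1 TPM or more were fitted with limma 3.58.1 (R 4.3.3) on log2(TPM + 1) values, with a mean-variance trend, two-sided, without covariates, and Benjamini-Hochberg adjustment over all of them at 0.05. The pseudocount of 1 shrinks the log2 fold changes of genes at low levels. Sums, sequence matches and figures were made with Python 3.11.15, pandas 2.3.3, numpy 2.4.6 and matplotlib 3.10.9. Sequences came from RefSeq (GRCm38.p6) and GENCODE M21, with no coordinates carried between builds. At most 1.02% of the 50-base windows of each listed gene's longest transcript occur in another gene.

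The genes, lists and tests were chosen with earlier results of these data known. Named were the 10 genes, Hk2, pathway genes past the threshold with Gne, Nans, Nanp, Slc35a1 and Neu1, and the 5 genes most like St6gal1; other genes were named to spell out a marker list, an overlap or a small count. Alternatives were pseudocounts of 0.1 and 0.5, no filter or a mean of 5 TPM, no trend, library weights, median-ratio scaling and each library left out.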

Additional observations from a re-analysis of the deposited data

How the results depend on the processing

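Under the 13 other settings, the log2 fold changes of St3gal5 (0.77 to 0.86), St3gal3 (0.39 to 0.49) and St6galnac6 (-0.47 to -0.42) kept their direction and their call. St6gal1 kept its direction (-1.32 to -0.86) and lost its call in 7, so that 1 gene of the list in place of 2 was called lower with no filter on low values, 1 with no mean-variance trend and 1 to 2 over the libraries left out; 2 were called higher in each of these, and 3 with library weights, where Cmas (0.22) was added. Its adjusted p in limma ran from 0.00311 to 0.117. St3gal1, near 0, changed sign with library weights (-0.06) and over the libraries left out ranged from -0.11 to 0.08, being at -0.06 without siHk2 library 1. Over the whole table, 820 genes were called higher and 990 lower, against 501 higher with no filter, 484 and 573 with no trend, 2032 and 2008 with library weights, and 193 to 1023 and 313 to 1106 over the libraries left out. Of the other sialic acid genes, 4 rose and 1 fell, against 0 lower with a pseudocount of 0.1, 2 and 0 with no filter, 1 and 0 with no trend, 9 and 6 with library weights, and 0 to 6 and 0 to 2 over the libraries left out. The causes were not tested. Where a library was left out, its group rested on the other two. No paired analysis was possible because the column numbers of siControl correspond to none of its sample titles. Depth is unknown, so no counting error could be given for low genes such as St3gal6.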
